A study of Mus musculus with 17 samples.

Results

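The 36 genes described here encode proteins that copy DNA, supply its building blocks and repair it. They were taken from a list of gene symbols chosen with earlier results of these data known. All 36 were measured among the 19751 genes of the lung arrays. Lung RNA of 17 mice of the Balb/c strain was hybridized to the Affymetrix Mouse Gene 1.0 ST array, with each mouse on an array of its own. Mice of the anti-RGMb group (n = 6) were sensitized and challenged with ovalbumin and were given a monoclonal antibody to RGMb, which serves as co-receptor of bone morphogenetic proteins. Mice of the isotype group (n = 5) were sensitized and challenged with ovalbumin too and received an isotype antibody. Mice of the saline group (n = 6) had saline in place of ovalbumin at both steps, and the labels name no antibody for them. Isotype minus saline therefore holds ovalbumin and the isotype antibody together, and no group had anti-RGMb without ovalbumin. All lungs came from the same time point of treatment, and the ages of the mice are not given in the sources used here.

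Replication is prepared when the origin recognition complex, Cdc6 and Cdt1 load the MCM2 to MCM7 ring onto DNA. It starts when Cdc45 and the GINS complex turn that ring into an active helicase, after which primase and polymerases copy both strands and flap removal and ligation close the nicks. Most of these genes are known to be expressed in the late G1 and S phases of dividing cells and to be under E2F transcription factors. In allergic lung, known sites of cell division include recruited and resident leukocytes and the airway epithelium.

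The mice fall into 2 replicate sets, called experiment 1 and experiment 2 here. The series' design text counts the mice of each set, the mouse numbers in the titles place them, and neither says how the sets were separated. Experiment 1 held mice 1, 2 and 3 of every group, and experiment 2 held anti-RGMb and saline mice 1-2, 2-2 and 3-2 and isotype mice 1-2 and 2-2. Array medians were 120 to 125 intensity units in experiment 1 and 362 to 386 in experiment 2. Each level is therefore given in log2 units above the mean of the saline mice of the same experiment, and the experiment was a term of every model. Orc1 alone lay below the lower quartile of the array in all 6 saline mice, and the other 35 members were brighter in at least 1 of them. Orc1 also lay below it in all 6 anti-RGMb mice and in isotype mice 1, 2 and 3. Gins1 lay below it in every saline mouse but 1-2, and Exo1 in saline mice 1, 3, 1-2 and 2-2. Brca1 lay below it in the saline mice of experiment 2, and Chek1 in saline mouse 1. All 36 members kept 1 probe set each for the values below. Differences are log2 values ± SE from limma, and a gene was called where its p, adjusted by Benjamini-Hochberg across the 19751 genes, was under 0.05. Values of the isotype mice are listed in the order 1, 2, 3, 1-2 and 2-2. Since each array holds RNA of bulk lung tissue, fewer cells of a type and less RNA per cell cannot be told apart.

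Every one of the 36 genes was higher in isotype than in saline lungs, where 14.6% of all genes were called higher. The median difference of the 36 was 0.87, against -0.04 over all genes. Of the 36, 10 were at least 2-fold higher, against 2.69% of all genes. The largest rises were in Rrm2, Pole and Uhrf1, and the smallest in Orc6, Rpa2 and Dut. In 33 of the 36 the isotype and saline mice did not overlap in either experiment, which held for 11.7% of all genes. The gap could be very small, as for Rfc3 in experiment 1, with isotype mouse 2 at 0.153 and saline mouse 2 at 0.150. Orc6, Pcna and Rpa2 were the 3 that overlapped, Pcna only by the brighter of its 2 probe sets.

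All 36 genes were also lower in anti-RGMb than in isotype lungs, where 10% of all genes were called lower. The median difference was -0.58, against 0.03 over all genes. Rrm2 fell the most and was the only 1 of the 36 at least 2-fold lower, against 0.613% of all genes. In 34 of the 36 the anti-RGMb and isotype mice did not overlap in either experiment, a pattern found in 7.26% of all genes. Some gaps were very small, as for Rfc3 in experiment 1, with isotype mouse 2 at 0.1532 and anti-RGMb mouse 1 at 0.1524. For Tk1 isotype mouse 3 was at 0.360 and anti-RGMb mouse 3 at 0.351. Cdc6 and Pcna overlapped, Pcna only by the brighter of its 2 probe sets. Both comparisons use the same 5 isotype arrays, and the saline arrays serve 2 comparisons as well, so the values stand side by side and are not independent.

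Set against saline lungs, anti-RGMb lungs had a higher level of 13 of the 36 genes, where 4.26% of all genes were called higher. Of the 36, 0 were called lower (2.24% of all genes), and 23 did not pass the threshold. Tk1 was among these 23 by the brighter of its 2 probe sets, but passed by the dimmer, adjusted over 21354 probe sets. The median difference was 0.28, against -0.01 over all genes. Called members were Cdc6, Cdt1, Mcm3, Mcm5, Mcm6, Mcm7, Mcm10, Cdc45 and Gins1 of the licensing and helicase genes, Pole, Rrm2, Chek1 and Uhrf1. In 15 of the 36 the 2 groups did not overlap in either experiment, against 4.7% of all genes. For 34 of the 36 the anti-RGMb mean lay between the isotype and saline means. The exceptions were Orc6 and Rpa2, with differences from saline of -0.00 and -0.05.

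**Figure D1:**
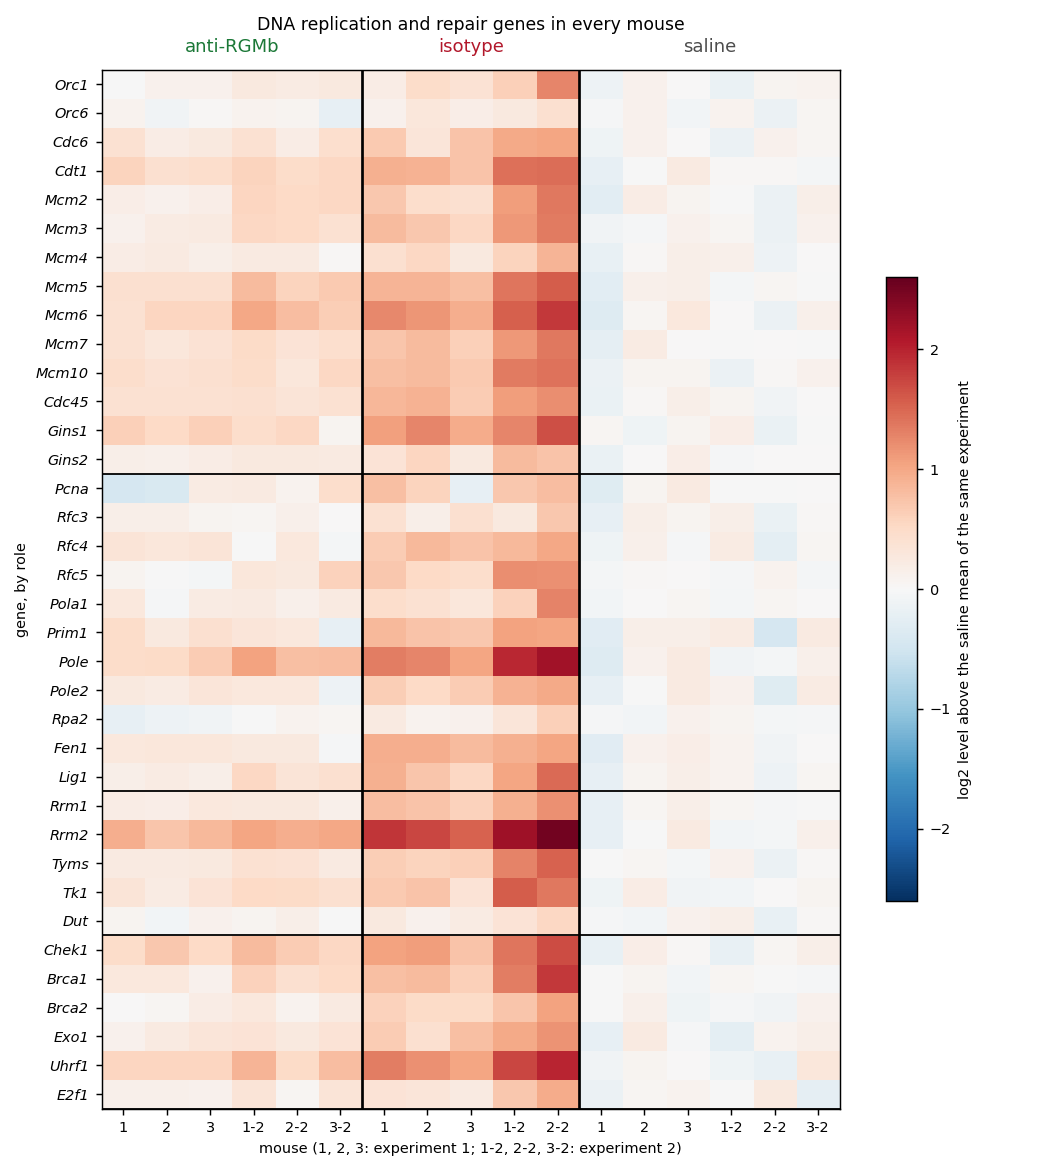
Level of each of the 36 genes (rows, by role) in each mouse (columns), in log2 units above the saline mean of the same experiment; red is higher and blue lower. Black lines part the groups and the roles, and the isotype columns are the reddest in nearly every row, with Rrm2 the darkest.

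The promoters of these genes were read for letters known from E2F binding sites, because the genes moved together. RefSeq promoter sequences (GRCm38.p6, 250 bases before to 50 after the start) were matched for 31 of the 36. In the 250 bases before the start, the letters TTTNNCGC, where each N is C or G, stood on either strand in 9 of 31 members (29%) and in 583 of 27025 genes (2.16%). In the whole window they stood in 41.9% of members and in 2.6% of genes. The CCAAT letters stood in 18 of 31 members (58.1%) before the start, against 37.5% of genes. The CHR-type letters TTTGAA or TTCGAA, known from genes of G2 and mitosis, stood in 16.1% of members and 19.6% of genes. The letters of the 3 motifs were counted separately even where they overlapped. The genes were not matched for base composition, and a match is a description of letters, not of a bound site.
The stretches around the E2F-type letters of the 9 members are shown because the share of genes with these letters differed most between the members and all genes. Capitals mark the letters, up to 16 bases stand on each side, and all are written 5′ to 3′ along the gene.
Orc1, chr4:108579411-108579450, plus strand: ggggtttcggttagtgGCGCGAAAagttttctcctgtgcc
Cdc6, chr11:98907997-98908036, plus strand: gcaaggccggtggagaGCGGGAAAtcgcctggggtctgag
Mcm5, chr8:75109344-75109383, plus strand: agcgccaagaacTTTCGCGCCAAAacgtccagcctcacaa
Mcm6, chr1:128359729-128359768, minus strand: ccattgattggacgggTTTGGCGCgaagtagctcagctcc
Mcm7, chr5:138172025-138172064, minus strand: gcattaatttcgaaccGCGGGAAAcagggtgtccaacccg
Rfc3, chr5:151651209-151651234, minus strand: aagtgacgtcgcacgcTTTCGCGCtc
Pola1, chrX:93632270-93632309, minus strand: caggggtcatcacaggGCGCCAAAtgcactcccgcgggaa
Brca2, chr5:150522437-150522476, plus strand: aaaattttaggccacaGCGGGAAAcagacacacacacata
Uhrf1, chr17:56304112-56304151, plus strand: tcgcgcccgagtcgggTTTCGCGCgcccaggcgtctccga
In Mcm5 the letters stood at 2 places on opposite strands that overlap in its capitals, and Mcm6 had 3 places, of which 1 is shown. The letters lay from 2 bases (Rfc3) to 177 bases (Uhrf1) before the start. Of these 9 genes, Cdc6, Mcm5, Mcm6, Mcm7 and Uhrf1 were among the 13 higher in anti-RGMb than in saline lungs, and Orc1, Rfc3, Pola1 and Brca2 were not called there. Of the 22 members without these letters before the start, Cdt1, Mcm3, Mcm10, Cdc45, Rrm2 and Chek1 were called there too. Gins1 and Pole, also called, had no matched promoter. Of all genes 4.26% were called higher, and whether the letters go with the call was not tested.

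Of the 14 genes for origin licensing and the helicase, all were higher in isotype than in saline lungs, with a median difference of 0.94. All 14 were lower in anti-RGMb than in isotype lungs (median -0.56). In anti-RGMb minus saline 9 of the 14 were higher (median 0.37), against 4.26% of all genes. They are given in the order of loading, from the origin recognition complex to the active helicase.
Orc1, the large ATP-binding subunit of the origin recognition complex, lay at -0.01 to 0.25 (median 0.17) in anti-RGMb lungs, at 0.19, 0.48, 0.38, 0.63 and 1.26 in isotype lungs, and at -0.17 to 0.12 (median 0.05) in saline lungs. Its 5 isotype values spread widely, with mouse 2-2 far above the others, and the highest anti-RGMb mouse stood above isotype mouse 1 of the other experiment. Orc1 differed by 0.61 ± 0.12 (adjusted p = 0.000385) for isotype minus saline and by -0.45 ± 0.12 (adjusted p = 0.0085) for anti-RGMb minus isotype. Orc6, the smallest subunit, moved the least of the 36, by 0.25 ± 0.07 (adjusted p = 0.0105) for isotype minus saline and -0.25 ± 0.07 (adjusted p = 0.0175) for anti-RGMb minus isotype.
Cdc6, a loader of the MCM ring, lay at 0.20 to 0.43 (median 0.32) in anti-RGMb lungs, at 0.67, 0.32, 0.74, 0.98 and 1.03 in isotype lungs, and at -0.16 to 0.11 (median 0.02) in saline lungs. Isotype mouse 2 stood low among the isotype mice, within the anti-RGMb values of its experiment. Cdc6 differed by 0.76 ± 0.09 (adjusted p = 4.26e-06) for isotype minus saline, -0.45 ± 0.09 (adjusted p = 0.00199) for anti-RGMb minus isotype and 0.31 ± 0.09 (adjusted p = 0.0433) for anti-RGMb minus saline. That last call was lost in 11 of the 17 fits without 1 mouse. Cdt1, the partner of Cdc6 in loading, differed by 1.11 ± 0.10 (adjusted p = 1.35e-07), -0.60 ± 0.10 (adjusted p = 0.000356) and 0.51 ± 0.10 (adjusted p = 0.00252) in the same 3 comparisons.

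The 6 subunits of the MCM2 to MCM7 ring, the core of the replicative helicase, all moved the same way but not by the same amount. Mcm6 lay at 0.39 to 1.00 (median 0.60) in anti-RGMb lungs, at 1.25, 1.15, 0.95, 1.56 and 1.84 in isotype lungs, and at -0.33 to 0.27 (median 0.04) in saline lungs. Every isotype mouse was above every saline mouse, and within each experiment above every anti-RGMb mouse. Mcm6 differed by 1.38 ± 0.12 (adjusted p = 8.34e-08) for isotype minus saline, -0.72 ± 0.12 (adjusted p = 0.000341) for anti-RGMb minus isotype and 0.66 ± 0.11 (adjusted p = 0.00128) for anti-RGMb minus saline.
Mcm4, which had the smallest differences of the ring, lay at 0.02 to 0.24 (median 0.22) in anti-RGMb lungs, at 0.43, 0.54, 0.25, 0.59 and 0.89 in isotype lungs, and at -0.19 to 0.16 (median 0.02) in saline lungs. Its isotype mice stood only a little above the others. The differences of Mcm4 were 0.55 ± 0.09 (adjusted p = 9.12e-05) for isotype minus saline and -0.37 ± 0.09 (adjusted p = 0.00656) for anti-RGMb minus isotype. Mcm2, Mcm3, Mcm5 and Mcm7 lay between them, at 0.84, 0.93, 1.13 and 0.95 for isotype minus saline. For anti-RGMb minus isotype these 4 were at -0.49, -0.60, -0.58 and -0.55. Of the ring, Mcm3, Mcm5, Mcm6 and Mcm7 were called higher in anti-RGMb than in saline lungs. Mcm2 and Mcm4 had 0.35 ± 0.11 (adjusted p = 0.0719) and 0.18 ± 0.09 (adjusted p = 0.249) there and were not called. The Mcm3 call was lost in 7 of the 17 fits without 1 mouse.

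The genes that turn the loaded ring into a moving helicase were also all higher in isotype lungs. Mcm10, a factor needed to activate the helicase, lay at 0.30 to 0.53 (median 0.44) in anti-RGMb lungs, at 0.79, 0.83, 0.69, 1.36 and 1.41 in isotype lungs, and at -0.15 to 0.12 (median 0.05) in saline lungs. The 2 isotype mice of experiment 2 stood highest. Mcm10 differed by 1.03 ± 0.10 (adjusted p = 3.18e-07) for isotype minus saline and -0.61 ± 0.10 (adjusted p = 0.000336) for anti-RGMb minus isotype. Cdc45, a helicase subunit, differed by 0.96 ± 0.08 (adjusted p = 3.04e-08), -0.57 ± 0.08 (adjusted p = 5.84e-05) and, for anti-RGMb minus saline, 0.39 ± 0.07 (adjusted p = 0.00249).
Gins1, a subunit of the GINS complex, lay at 0.08 to 0.61 (median 0.53) in anti-RGMb lungs, at 1.06, 1.27, 0.96, 1.27 and 1.67 in isotype lungs, and at -0.17 to 0.17 (median 0.03) in saline lungs. Isotype mice were all higher than anti-RGMb mice, and anti-RGMb mouse 3-2 stood apart at the low end of its group. Gins1 differed by 1.25 ± 0.12 (adjusted p = 1.58e-07) for isotype minus saline and -0.78 ± 0.12 (adjusted p = 0.000121) for anti-RGMb minus isotype. Gins2, another subunit, differed less, by 0.56 ± 0.08 (adjusted p = 1.68e-05) and -0.35 ± 0.08 (adjusted p = 0.00298).

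**Figure D2:**
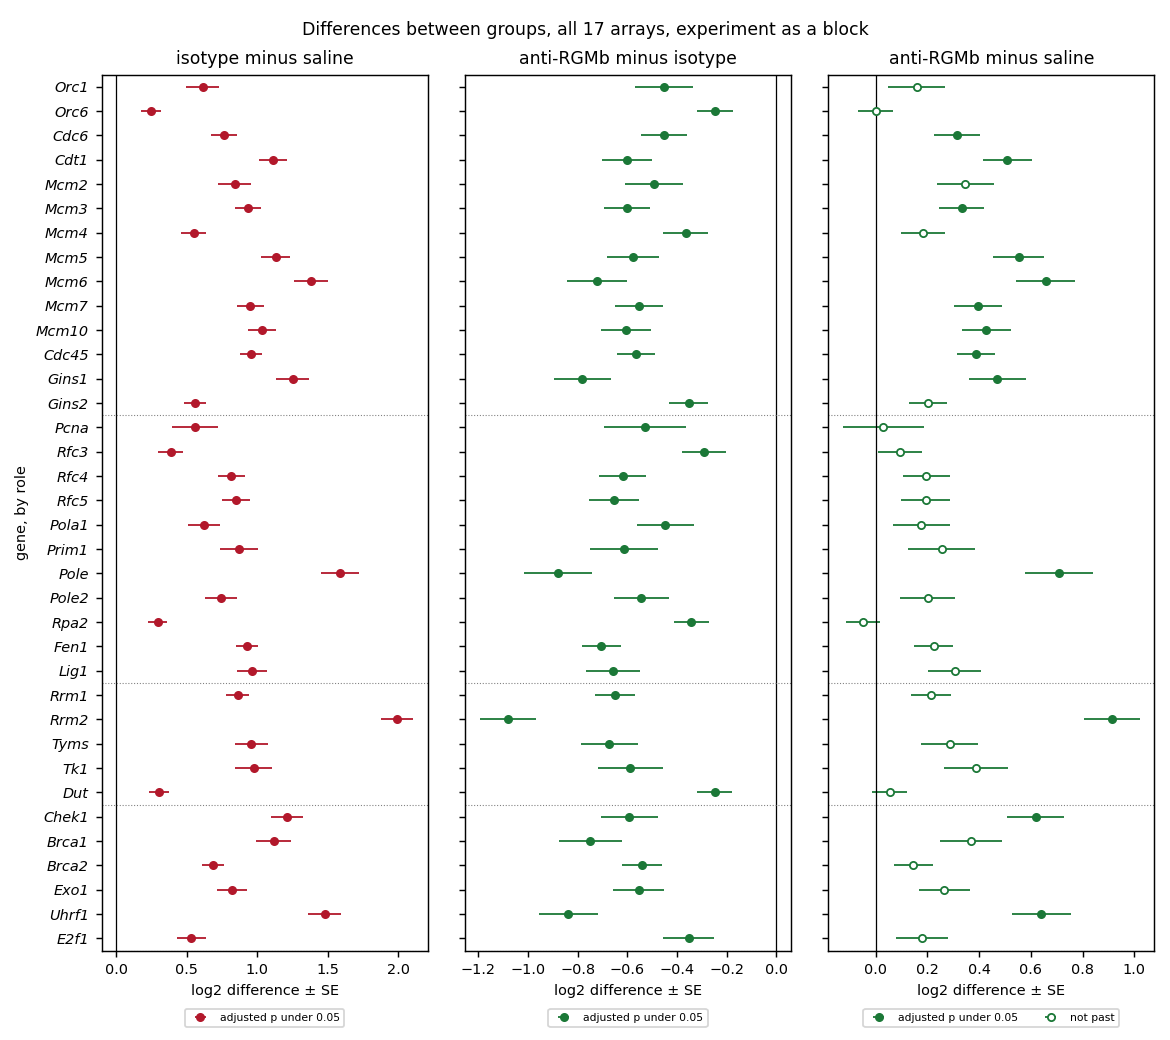
Differences in log2 units (points, with ± 1 SE as bars) of each gene for the 3 comparisons, with the genes in rows by role. Filled points passed the adjusted p threshold: all 36 in the left and middle panels, and 13 in the right panel.

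The 11 genes for polymerases, the sliding clamp, its loader and strand maturation were all higher in isotype than in saline lungs (median 0.82) and all lower in anti-RGMb than in isotype lungs (median -0.61). Only 1 of the 11, Pole, was called higher in anti-RGMb than in saline lungs, where the median was 0.20 and 4.26% of all genes were called higher. The difference in that share between roles was not tested.
Pole, the catalytic subunit of the leading strand polymerase epsilon, lay at 0.47 to 1.04 (median 0.72) in anti-RGMb lungs, at 1.32, 1.27, 1.04, 1.95 and 2.18 in isotype lungs, and at -0.33 to 0.23 (median 0.03) in saline lungs. The isotype mice of experiment 2 stood near or above 2 units, and isotype mice were above all others of their experiment. Pole differed by 1.59 ± 0.14 (adjusted p = 7.37e-08) for isotype minus saline, a 3.01-fold higher level, and by -0.88 ± 0.14 (adjusted p = 0.000201) for anti-RGMb minus isotype. Pole2, its accessory subunit, differed by 0.74 ± 0.11 (adjusted p = 3.97e-05) and -0.54 ± 0.11 (adjusted p = 0.00192). The priming enzymes moved in the same directions. Pola1, the catalytic subunit of polymerase alpha, differed by 0.62 ± 0.12 (adjusted p = 0.000312) and -0.45 ± 0.12 (adjusted p = 0.0092), and Prim1, the primase, by 0.87 ± 0.14 (adjusted p = 6.06e-05) and -0.61 ± 0.14 (adjusted p = 0.00332).

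Pcna, the sliding clamp that holds polymerases on DNA, lay at -0.43 to 0.46 (median 0.15) in anti-RGMb lungs, at 0.79, 0.57, -0.21, 0.70 and 0.81 in isotype lungs, and at -0.31 to 0.23 (median 0.01) in saline lungs. Isotype mouse 3 was at -0.21, below the other 4 isotype mice, and the groups overlapped. Pcna differed by 0.56 ± 0.16 (adjusted p = 0.0127) for isotype minus saline and -0.53 ± 0.16 (adjusted p = 0.0285) for anti-RGMb minus isotype. The call for anti-RGMb minus isotype was lost in 7 of the 17 fits that left out 1 mouse each, with an adjusted p up to 0.0834, without isotype mouse 1. A second Pcna probe set, the dimmer of 2, put isotype mouse 3 at 0.45 and, adjusted over 21354 probe sets, gave 0.58 ± 0.07 (adjusted p = 2.58e-06) and -0.42 ± 0.07 (adjusted p = 0.00029) in the same comparisons. On that set isotype mice lay at 0.45 to 0.78, anti-RGMb mice at 0.01 to 0.23 and saline mice at -0.21 to 0.11. RefSeq lists 2 pseudogenes of Pcna, and how much of either signal comes from them was not tested. Probe set numbers of members with a matched promoter fell in blocks by chromosome. The number of the dimmer Pcna set lay between those of Mcm10 and E2f1, both on chr2, as the Pcna promoter is. That of the brighter set, used for Pcna here, lay between those of Uhrf1 (chr17) and Fen1 (chr19). The positions of the probe sets themselves are not given in the sources used here.
Clamp loader subunits differed in size. Rfc3 differed by 0.39 ± 0.09 (adjusted p = 0.00214) for isotype minus saline and -0.29 ± 0.09 (adjusted p = 0.0251) for anti-RGMb minus isotype, Rfc4 by 0.82 and -0.62, and Rfc5 by 0.85 and -0.65.
Fen1, which cuts the flaps left on the lagging strand, lay at -0.03 to 0.30 (median 0.27) in anti-RGMb lungs, at 0.95, 0.94, 0.82, 0.93 and 1.02 in isotype lungs, and at -0.29 to 0.18 (median 0.05) in saline lungs. The isotype mice lay close together and above the rest, while anti-RGMb mouse 3-2 was the lowest of its group. Fen1 differed by 0.93 ± 0.08 (adjusted p = 6.35e-08) and -0.70 ± 0.08 (adjusted p = 1.34e-05) for isotype minus saline and anti-RGMb minus isotype. Lig1, the ligase that joins the fragments, differed by 0.96 ± 0.11 (adjusted p = 1.49e-06) and -0.66 ± 0.11 (adjusted p = 0.00029). Rpa2, a subunit of the single-strand binding complex, moved little, by 0.29 ± 0.07 (adjusted p = 0.00267) and -0.34 ± 0.07 (adjusted p = 0.00165).

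The 5 genes of nucleotide supply included the largest change of the set. Their median difference was 0.96 for isotype minus saline, -0.65 for anti-RGMb minus isotype and 0.29 for anti-RGMb minus saline. Rrm2, the small subunit of ribonucleotide reductase and the one made in S phase, lay at 0.71 to 1.02 (median 0.95) in anti-RGMb lungs, at 1.85, 1.74, 1.53, 2.21 and 2.51 in isotype lungs, and at -0.21 to 0.23 (median -0.03) in saline lungs. All 5 isotype mice were above all 6 anti-RGMb mice, and all 6 anti-RGMb mice above all 6 saline mice. Rrm2 differed by 1.99 ± 0.11 (adjusted p = 5.2e-10) for isotype minus saline, a 3.98-fold higher level. For anti-RGMb minus isotype it differed by -1.08 ± 0.11 (adjusted p = 7.03e-06), a 2.12-fold lower level, and for anti-RGMb minus saline by 0.91 ± 0.11 (adjusted p = 2.37e-05).
Rrm1, the large subunit, lay at 0.14 to 0.27 (median 0.22) in anti-RGMb lungs, at 0.81, 0.75, 0.59, 0.92 and 1.19 in isotype lungs, and at -0.22 to 0.16 (median 0.02) in saline lungs. Its isotype mice stood above its other mice of the same experiment, by less than those of Rrm2. Rrm1 differed by 0.86 ± 0.08 (adjusted p = 1.94e-07) for isotype minus saline and -0.65 ± 0.08 (adjusted p = 2.99e-05) for anti-RGMb minus isotype, and its 0.21 for anti-RGMb minus saline was not called (adjusted p = 0.116).

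Tyms, thymidylate synthase, lay at 0.22 to 0.39 (median 0.25) in anti-RGMb lungs, at 0.64, 0.57, 0.62, 1.30 and 1.52 in isotype lungs, and at -0.15 to 0.11 (median 0.01) in saline lungs. The 2 isotype mice of experiment 2 were the highest, and those of experiment 1 lay close together. Tyms differed by 0.96 ± 0.12 (adjusted p = 3.68e-06) for isotype minus saline and -0.67 ± 0.12 (adjusted p = 0.000448) for anti-RGMb minus isotype. RefSeq names 1 Tyms pseudogene, and its part in the signal was not tested.
Tk1, the cytosolic thymidine kinase of the salvage route, lay at 0.20 to 0.52 (median 0.38) in anti-RGMb lungs, at 0.67, 0.74, 0.36, 1.57 and 1.37 in isotype lungs, and at -0.11 to 0.19 (median -0.04) in saline lungs. Isotype mouse 3 was close to the anti-RGMb mice of experiment 1, and isotype mice 1-2 and 2-2 were far above all others. Tk1 differed by 0.98 ± 0.13 (adjusted p = 1.18e-05) for isotype minus saline and -0.59 ± 0.13 (adjusted p = 0.00341) for anti-RGMb minus isotype, and its 0.39 ± 0.12 (adjusted p = 0.076) for anti-RGMb minus saline was not called. A dimmer second Tk1 probe set had 1.41 ± 0.16 and -0.70 ± 0.16 in the first 2 comparisons, and 0.70 ± 0.15 (adjusted p = 0.00731 over 21354 probe sets) for anti-RGMb minus saline. The number of this second set lay between those of Brca1 (chr11) and Rrm2 (chr12), and the Tk1 promoter is on chr11. That of the set used for Tk1 here lay between those of Cdt1 (chr8) and Chek1 (chr9). What each set reads was not tested. Dut, which removes dUTP and so keeps uracil out of DNA, moved little, by 0.30 ± 0.07 (adjusted p = 0.00239) and -0.25 ± 0.07 (adjusted p = 0.0172) for isotype minus saline and anti-RGMb minus isotype.

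The 6 genes of checkpoint, repair and regulation had a median difference of 0.97 for isotype minus saline, -0.57 for anti-RGMb minus isotype and 0.32 for anti-RGMb minus saline. Chek1, the kinase that holds the cell cycle when replication stalls, lay at 0.49 to 0.82 (median 0.60) in anti-RGMb lungs, at 1.05, 1.08, 0.74, 1.38 and 1.70 in isotype lungs, and at -0.20 to 0.17 (median 0.03) in saline lungs. Isotype and anti-RGMb mice were all above the saline mice. Chek1 differed by 1.21 ± 0.12 (adjusted p = 2.39e-07) for isotype minus saline, -0.59 ± 0.12 (adjusted p = 0.00125) for anti-RGMb minus isotype and 0.62 ± 0.11 (adjusted p = 0.00152) for anti-RGMb minus saline.
Brca1, a core gene of homologous recombination, lay at 0.11 to 0.60 (median 0.35) in anti-RGMb lungs, at 0.79, 0.83, 0.62, 1.34 and 1.84 in isotype lungs, and at -0.08 to 0.08 (median -0.00) in saline lungs. Isotype mouse 2-2 was the highest by a wide margin. Brca1 differed by 1.12 ± 0.13 (adjusted p = 1.66e-06) for isotype minus saline and -0.75 ± 0.13 (adjusted p = 0.000357) for anti-RGMb minus isotype. Its 0.37 ± 0.12 (adjusted p = 0.08) for anti-RGMb minus saline was not called. Brca2, another gene of homologous recombination, differed by 0.69 ± 0.08 (adjusted p = 2.25e-06) and -0.54 ± 0.08 (adjusted p = 0.000113), and Exo1, an exonuclease of mismatch repair and end resection, by 0.82 ± 0.10 (adjusted p = 5.63e-06) and -0.55 ± 0.10 (adjusted p = 0.00086).
Uhrf1, which brings the maintenance DNA methyltransferase to newly copied strands, lay at 0.49 to 0.88 (median 0.55) in anti-RGMb lungs, at 1.34, 1.19, 1.03, 1.73 and 1.98 in isotype lungs, and at -0.19 to 0.29 (median -0.04) in saline lungs. Isotype mice were above all anti-RGMb mice, and anti-RGMb mice above all saline mice. Uhrf1 differed by 1.48 ± 0.12 (adjusted p = 3.3e-08) for isotype minus saline, -0.84 ± 0.12 (adjusted p = 9.26e-05) for anti-RGMb minus isotype and 0.64 ± 0.11 (adjusted p = 0.00155) for anti-RGMb minus saline. E2f1, a transcription factor known to drive entry into S phase, changed less, by 0.53 ± 0.10 (adjusted p = 0.000519), -0.35 ± 0.10 (adjusted p = 0.0207) and, not called, 0.18 ± 0.10 (adjusted p = 0.357).

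Differences within the 2 experiments mostly had the same sign and differed in size. All 36 genes had the same sign in both experiments for isotype minus saline and for anti-RGMb minus isotype, and 33 of 36 for anti-RGMb minus saline, against 76.8%, 68.2% and 62.1% of all genes. All 36 rises of isotype minus saline were larger in experiment 2, where the isotype group held 2 mice. The share of all genes with a larger rise or fall in experiment 2 was not counted. Within experiment 1, 29 of 36 were called higher for isotype minus saline (8.81% of all genes), and within experiment 2 all 36 were (13.7% of all genes). For anti-RGMb minus isotype, 20 of 36 were called lower in experiment 1 (3.13% of all genes) and 35 of 36 in experiment 2 (11.3% of all genes). In 35 of 36 the fall was larger in experiment 2, and Pcna, by its brighter probe set, was the exception. By the dimmer Pcna set the fall was larger in experiment 2 as well.
The difference between experiments was itself called for Tyms, Tk1, Brca1, Rfc5 and Mcm10 in isotype minus saline, which is 5 of 36, against 0.582% of all genes. Tyms differed by 1.41 in experiment 2 and 0.61 in experiment 1, an experiment 2 minus experiment 1 difference of 0.80 (adjusted p = 0.00371). That difference was 0.88 (adjusted p = 0.0133) for Tk1 and 0.84 (adjusted p = 0.0206) for Brca1. It was 0.64 (adjusted p = 0.0362) for Rfc5 and 0.61 (adjusted p = 0.0387) for Mcm10. The Tk1 value is of its brighter probe set, with isotype mice at 0.36 to 0.74 in experiment 1 and 1.37 to 1.57 in experiment 2. On the dimmer Tk1 set isotype mice were closer between experiments, at 0.85 to 1.41 and 1.68 to 1.72. The difference between experiments was not tested on that set. For anti-RGMb minus isotype only Tyms was called, with -1.08 in experiment 2 and -0.37 in experiment 1 and a difference of -0.70 (adjusted p = 0.018), against 0.405% of all genes called more negative. For anti-RGMb minus saline, 0 of the 36 and 0 of all 19751 genes were called for this limma interaction.

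**Figure D3:**
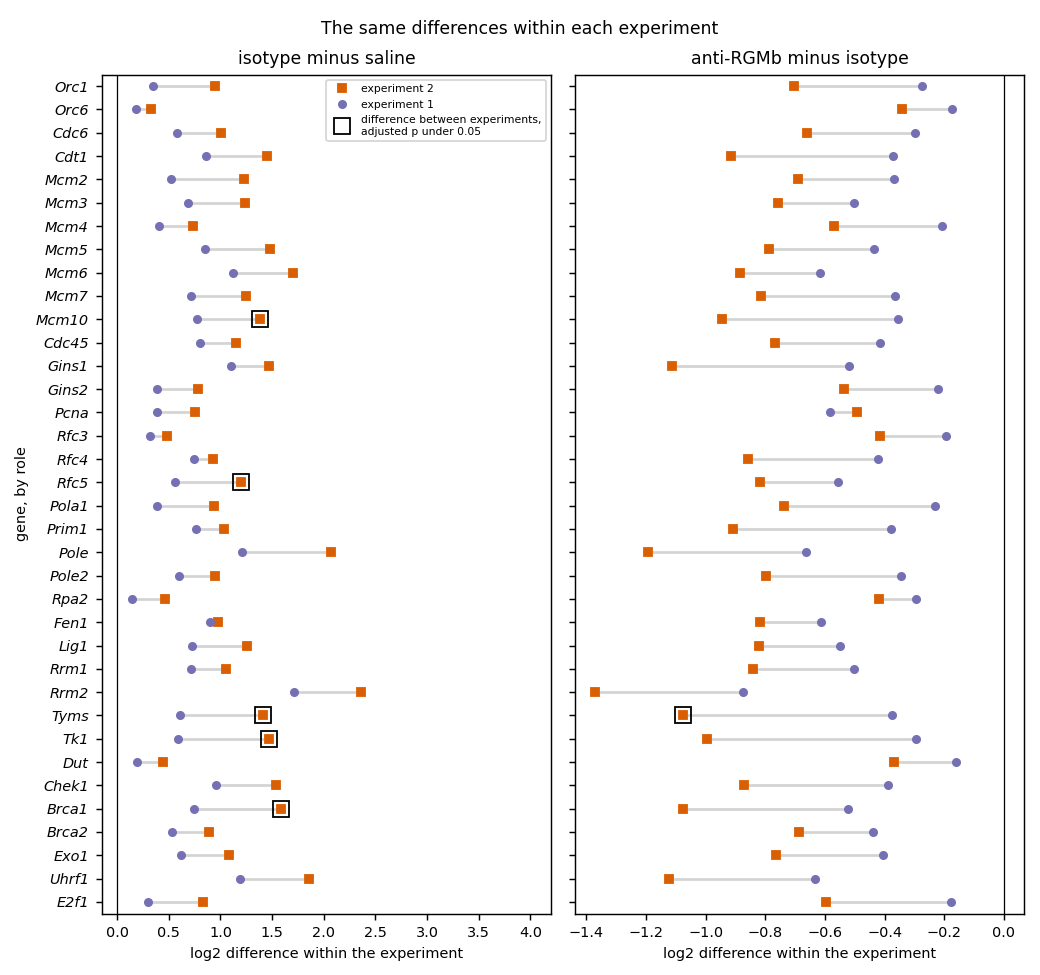
Difference of each gene within experiment 2 (squares) and experiment 1 (circles) in log2 units, for isotype minus saline on the left and anti-RGMb minus isotype on the right. A black box marks an adjusted p under 0.05 for the difference between the experiments: Mcm10, Rfc5, Tyms, Tk1 and Brca1 on the left and Tyms on the right.

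Mice of 1 group differed in the set as a whole. The mean level of the 36 genes was 0.23 to 0.43 in the 6 anti-RGMb mice. In isotype mice 1, 2, 3, 1-2 and 2-2 it was 0.74, 0.70, 0.58, 1.05 and 1.27. In saline mice it was -0.16 to 0.09. Isotype mouse 2-2 was the highest isotype mouse in 32 of the 36 genes, and mouse 3 the lowest in 25. No isotype mean fell within the range of the other groups. Without isotype mouse 2-2 the median of isotype minus saline was 0.81 and all 36 genes were still called. For anti-RGMb minus isotype without that mouse the median was -0.50 and 31 were called, with Orc6, Pcna, Rfc3, Dut and E2f1 lost.

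Lists of other genes of the same processes were set beside the 36. They were chosen by known function, with earlier results of these data known. Over all genes 14.6% were called higher and 21% lower for isotype minus saline. For anti-RGMb minus isotype 10% were called lower and 11.1% higher, and for anti-RGMb minus saline 4.26% higher. Of 42 other replication genes, 25 were higher in isotype than in saline lungs, 0 were lower and 17 were not called (median 0.32). In anti-RGMb minus isotype 21 of these 42 were lower, 0 were higher and 21 were not called (median -0.26), and 8 were higher in anti-RGMb than in saline lungs. Asf1b, a chaperone that hands histones to new DNA, differed by 1.79 ± 0.13 (adjusted p = 6.24e-09) for isotype minus saline and -0.90 ± 0.13 (adjusted p = 7.56e-05) for anti-RGMb minus isotype. Ticrr, needed for origins to fire, differed by 1.39 ± 0.12 (adjusted p = 4.36e-08) and -0.88 ± 0.12 (adjusted p = 4.35e-05). Clspn, an adaptor of the replication checkpoint, differed by 1.16 ± 0.10 (adjusted p = 4.44e-08) for isotype minus saline. Dbf4, the activator of the Cdc7 kinase, differed by -0.76 ± 0.10 (adjusted p = 6.09e-05) for anti-RGMb minus isotype. These 4 genes moved in the directions of the 36.

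Of 14 other nucleotide supply genes measured of 16, 6 were higher in isotype than in saline lungs, 2 lower and 6 not called. In anti-RGMb minus isotype 4 were lower, 1 higher and 9 not called. Dck, the deoxycytidine kinase, differed by 0.87 ± 0.10 (adjusted p = 2.64e-06) for isotype minus saline and -0.52 ± 0.10 (adjusted p = 0.00125) for anti-RGMb minus isotype. Rrm2b and Tk2, the ribonucleotide reductase subunit and the thymidine kinase known to serve cells outside S phase, ran the other way. Rrm2b differed by -0.46 ± 0.09 (adjusted p = 0.000688) for isotype minus saline and 0.32 ± 0.09 (adjusted p = 0.0189) for anti-RGMb minus isotype. Tk2, a mitochondrial kinase, differed by -0.22 ± 0.06 (adjusted p = 0.00494) for isotype minus saline.
Of 37 other repair and checkpoint genes measured of 41, 18 were higher in isotype than in saline lungs, 4 lower and 15 not called. In anti-RGMb minus isotype 19 were lower, 0 higher and 18 not called. Rad54l, also of homologous recombination, differed by 1.25 ± 0.10 (adjusted p = 3.36e-08) for isotype minus saline and -0.84 ± 0.10 (adjusted p = 2.18e-05) for anti-RGMb minus isotype, and Brip1, a partner helicase of Brca1, by 1.21 ± 0.11 (adjusted p = 2.05e-07) and -0.74 ± 0.11 (adjusted p = 0.000178). Ercc1, of nucleotide excision repair, was among the lower ones, at -0.32 ± 0.08 (adjusted p = 0.00271) for isotype minus saline. Xrcc5, a subunit of the Ku complex of end joining, differed by -0.21 ± 0.07 (adjusted p = 0.0328) there.
Of 27 E2F, pocket protein and G1 to S control genes measured of 28, 13 were higher in isotype than in saline lungs, 6 lower and 8 not called. In anti-RGMb minus isotype 11 were lower, 3 higher and 13 not called. Ccna2, the cyclin of S and G2 phases, differed by 2.31 ± 0.18 (adjusted p = 2.33e-08) for isotype minus saline and -1.02 ± 0.18 (adjusted p = 0.000563) for anti-RGMb minus isotype. E2f8, a repressive E2F made in S phase, differed by 1.73 ± 0.11 (adjusted p = 3.1e-09) and -0.94 ± 0.11 (adjusted p = 2.51e-05), and Ccne2, a cyclin of S phase entry, by 1.18 ± 0.14 (adjusted p = 3.62e-06) and -0.80 ± 0.14 (adjusted p = 0.000556). Ccnd2 and Ccnd1, the D-type cyclins of G1, were lower in isotype than in saline lungs, at -0.54 ± 0.05 (adjusted p = 2.31e-07) and -0.40 ± 0.07 (adjusted p = 9.18e-05), and higher in anti-RGMb than in isotype lungs, at 0.31 ± 0.05 (adjusted p = 0.00034) and 0.27 ± 0.07 (adjusted p = 0.00665).

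Mitosis genes, the genes of cell division after replication, were set beside the 36. All 21 measured of 22 were higher in isotype than in saline lungs (median 1.87) and all 21 lower in anti-RGMb than in isotype lungs (median -1.01). All 21 were also higher in anti-RGMb than in saline lungs (median 0.93), against 13 of the 36 replication and repair genes and 4.26% of all genes. Whether these shares differ was not tested. Mki67, a marker of dividing cells, differed by 2.47 ± 0.17 (adjusted p = 3.98e-09) for isotype minus saline and 1.30 ± 0.16 (adjusted p = 3.72e-05) for anti-RGMb minus saline. Plk1, a kinase of mitosis, differed by -1.21 ± 0.16 (adjusted p = 4.42e-05) for anti-RGMb minus isotype.

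**Figure D4:**
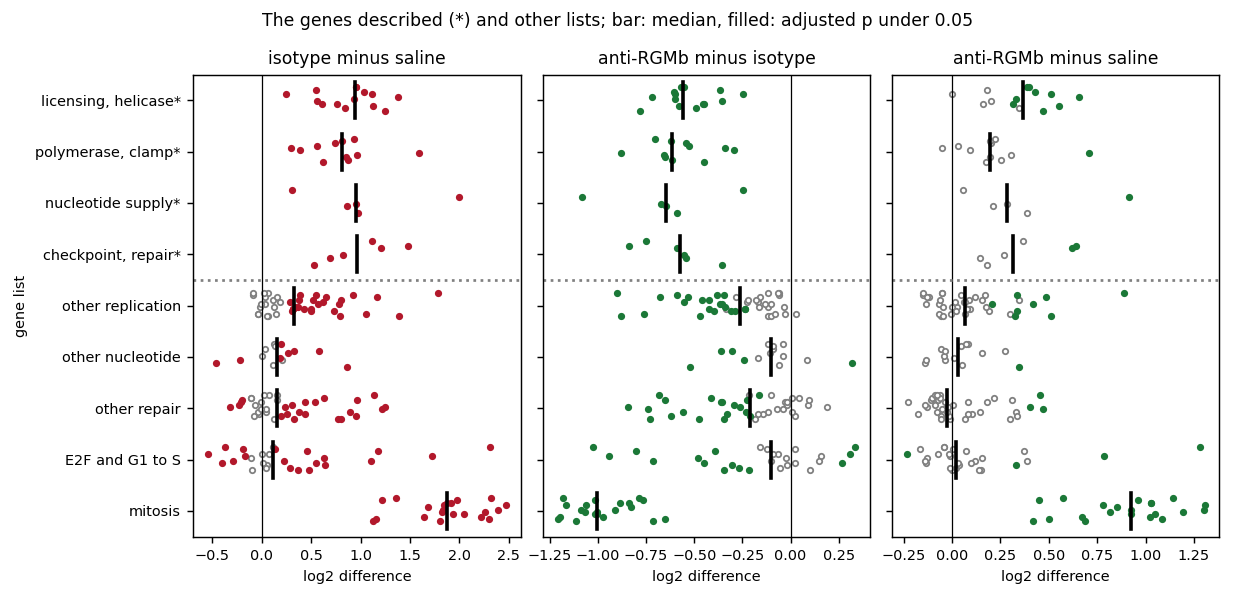
Differences in log2 units of every gene in each list (points; filled where the adjusted p was under 0.05, bars at the list median) for the 3 comparisons. The first 4 lists, marked with an asterisk, hold the 36 genes, which lie on 1 side of 0 in the left and middle panels, as the mitosis genes do.

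Markers of 4 cell types that a lung sample can hold were set beside the 36 genes. Of 9 macrophage markers 8 were higher in isotype than in saline lungs and 8 were lower in anti-RGMb than in isotype lungs. Their mean level was 0.95 to 1.26 in anti-RGMb mice, 1.60 to 2.01 in isotype mice and -0.19 to 0.14 in saline mice. Of 9 T cell markers measured of 10, 8 were higher in isotype than in saline lungs and 5 lower in anti-RGMb than in isotype lungs. Their mean level was -0.01 to 0.73 in anti-RGMb mice, 0.47 to 0.95 in isotype mice and -0.15 to 0.11 in saline mice. Of 7 B and germinal centre cell markers measured of 9, 4 were higher in isotype than in saline lungs and 5 lower in anti-RGMb than in isotype lungs. Their mean level was -0.14 to 0.13 in anti-RGMb mice, 0.08 to 0.67 in isotype mice and -0.11 to 0.18 in saline mice. Of 7 plasma cell markers 4 were higher and 2 lower in isotype than in saline lungs, and 1 was lower and 6 were not called for anti-RGMb minus isotype. Their mean level was 0.37 to 0.87 in anti-RGMb mice, 0.70 to 1.70 in isotype mice and -0.08 to 0.10 in saline mice. The part of these cells in the result was not tested.
Markers of resident cells ran the other way. Of 9 lung identity markers 7, of 8 alveolar epithelium markers 5 and of 7 endothelium markers 7 were lower in isotype than in saline lungs. Lung identity shares Sftpc, Sftpb and Ager with alveolar epithelium, and Cdh5 and Pecam1 with endothelium, so these counts are not separate. The lung label held, with Sftpc, Scgb1a1 and the other lung identity markers above the lower quartile on every array. Heart muscle markers, of 8 measured, had 7 lower in isotype than in saline lungs, with a mean level of -1.46 to 1.10 in anti-RGMb mice, -1.91 to -0.34 in isotype mice and -0.56 to 1.07 in saline mice, and their part in the result was not tested.
Thymus and immature lymphocyte markers, of dividing cells in a tissue that can lie beside a lung sample, had 1 of 9 higher and 1 lower in isotype than in saline lungs. Rag1, Rag2, Dntt and Vpreb1 lay below the lower quartile on all 17 arrays. Of 5 erythroid precursor markers measured of 7, Tfrc, the transferrin receptor of dividing cells in general, was higher in isotype than in saline lungs by 0.99 ± 0.10 (adjusted p = 7.79e-07) and 2 were lower. Klf1 and Rhag lay below the lower quartile on all 17 arrays.

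**Figure D5:**
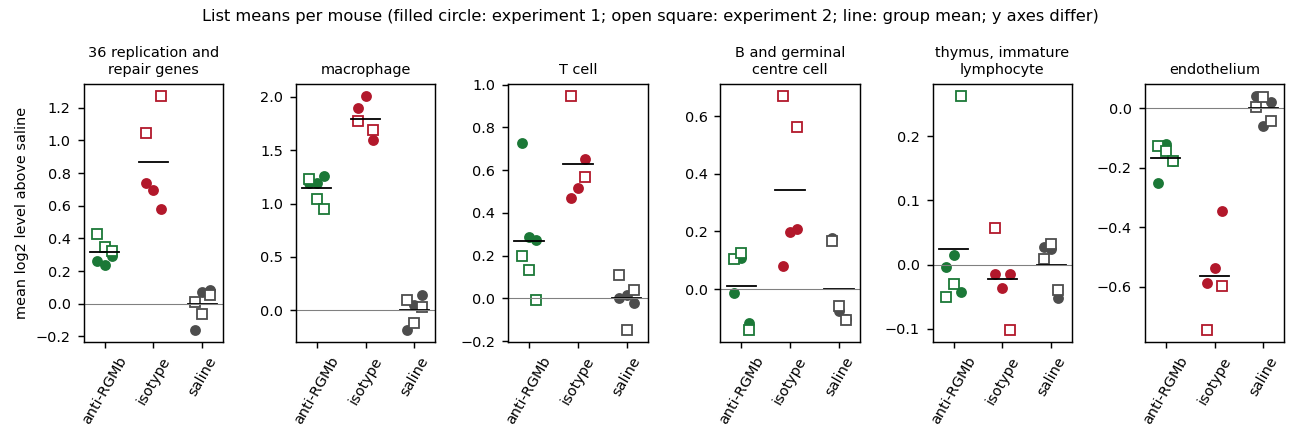
Mean log2 level above saline of the 36 genes and of 5 marker lists in each mouse (circles, experiment 1; squares, experiment 2; line, group mean), with a scale of its own for each panel. The means of the 36 genes do not overlap between the 3 groups, those of the macrophage list do not either, and the endothelium list has its lowest values in isotype mice.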

How the data were processed

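The authors deposited an intensity on a linear scale for each probe set, which the submitters' processing notes credit to RMA, a method that corrects background, normalizes arrays and summarizes probes (version not given in the sources used here). Its log2 was taken here without a constant. Precision is limited by how many arrays there are. Of 24679 probe sets, 21354 had 1 symbol, 1275 several and 2050 none. For the 893 genes with several probe sets the brightest was kept. limma 3.58.1 in R 4.3.3 fitted group and experiment to all 19751 genes (17 arrays), and a model with separate group means in each experiment gave within-experiment values and the interaction. All tests were 2-sided. The labels do not say whether replicate mice were littermates, so p-values measure the spread between these mice. Some values were the same on separate arrays, as in anti-RGMb mice 1, 2 and 3 for Cdc45 (0.389) and Uhrf1 (0.553). For Exo1 anti-RGMb mouse 2 and saline mouse 2 were both at 0.226. Ties within a group narrow its spread, and their source and their effect on the p-values were not tested. The members and lists were chosen with earlier results of these data known. All 36 members are named, and up to 3 genes per direction of each other list. Mice were not paired, because the mouse numbers only name mice. Same-numbered mice of 2 groups had residuals correlated at -0.6 to 0.297, over 0.1 in 3 of 16 pairs. Residuals of a group within an experiment sum to 0, so these correlations cannot decide whether mice were paired. On simulated data the fit recovered 92% of changes of 0.5 log2 units in isotype minus saline, 93% in anti-RGMb minus isotype and 96% in anti-RGMb minus saline. False calls were 8 of 196, 10 of 203 and 8 of 203. The simulation drew independent normal noise and changed 100 genes each by 0.5 and by 1 log2 unit, equally in both experiments. Many more genes were called in the real data, so these shares need not hold there. Alternatives covered the block, normalization, filter, probe sets, experiment and each mouse left out.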

Additional observations from a re-analysis of the deposited data

Results flagged for a closer look

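In 108 groups of 5 or 6 mice, 5 held a mouse far from the others of its group by Dixon's test, and chance flags about 1 in 20 groups. Anti-RGMb mouse 3-2 was the lowest of its group at 0.080 for Gins1 (next mouse 0.47), at -0.21 for Prim1 (next 0.25), at -0.12 for Pole2 (next 0.21) and at -0.033 for Fen1 (next 0.25), in log2 units above saline. That mouse had a mean of 0.32 over the 36 genes, within the anti-RGMb range of 0.23 to 0.43. Its mean of the thymus and immature lymphocyte markers was 0.26, the highest of the 17 mice, and whether the values are linked was not tested. Of these 9 markers, Rag1, Rag2, Dntt and Vpreb1 lay below the lower quartile on all 17 arrays, and Gins1 lay below it in mouse 3-2. The array of mouse 3-2 had the highest lower quartile of experiment 2, at 137 intensity units against 109 to 127 on the rest. Isotype mouse 3 was the lowest of its group for Pcna at -0.21 (next 0.57), while a second Pcna probe set put it at 0.45.

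The rise of isotype minus saline was larger in experiment 2 than in experiment 1, by limma's interaction term, for Tyms (0.80, adjusted p = 0.00371), Tk1 (0.88, adjusted p = 0.0133), Brca1 (0.84, adjusted p = 0.0206), Rfc5 (0.64, adjusted p = 0.0362) and Mcm10 (0.61, adjusted p = 0.0387). The fall of Tyms in anti-RGMb minus isotype was larger too (-0.70, adjusted p = 0.018). The Tk1 value is of the brighter of its 2 probe sets, and the interaction was not tested on the dimmer set. Experiment 2 held 2 isotype mice, and mouse 2-2 was the higher of them for most genes.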

How the results depend on the processing

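Without the experiment in the model (no replicate block), the gap in level between experiments entered the spread and 0 members were called in any comparison. By limma, 4 members had an unadjusted p under 0.05 for isotype minus saline, 0 for anti-RGMb minus isotype and 0 for anti-RGMb minus saline, with medians of 0.71 and -0.38 in the first 2, where the medians of all genes were -0.20 and 0.19. With mouse number as a replicate block, 36 were higher, 32 lower (Orc6, Pcna, Rfc3 and E2f1 lost) and 11 higher (Cdc6 and Mcm3 lost) in the 3 comparisons. In experiment 1 alone the medians were 0.65 and -0.38, with 18 members lower in anti-RGMb minus isotype and 7 higher in anti-RGMb minus saline. In experiment 2 alone the medians were 1.12 and -0.81. Leaving out each mouse kept 36 to 36 higher (medians 0.81 to 0.92), 31 to 36 lower (medians -0.65 to -0.50) and 11 to 17 higher (medians 0.24 to 0.33). The 31 came without isotype mouse 2-2, the 11 without anti-RGMb mouse 2, and the 17 without isotype mouse 2-2. Over all genes the fits with a mouse left out called 2532 to 3004 higher, 1522 to 2111 lower and 689 to 961 higher. The 1522 and the 961 came without isotype mouse 2-2 too, and the 689 without anti-RGMb mouse 3. Pcna lost its anti-RGMb minus isotype call in 7 of 17 such fits. Cdc6 lost its anti-RGMb minus saline call under 3 other normalizations, with adjusted p of 0.0502 to 0.0514.

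Signs turned for 3 uncalled values of anti-RGMb minus saline. Orc6 was 0.013 in experiment 1 alone and -0.036 to 0.049 with a mouse left out. Pcna was -0.20 in experiment 1 alone and -0.038 to 0.11 with a mouse left out. Rpa2 was 0.047 in experiment 2 alone. The cause of these shifts was not tested. The other normalizations, the filter, the probe set mean and the moderated prior kept all calls of isotype minus saline and anti-RGMb minus isotype among the members they tested; the filter left 29.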
